A study of Mus musculus with 8 samples.

Results

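Cwc22, Sfi1 and Adh6b are 3 of 21631 protein-coding mouse genes, and each had several GATA2 peaks within 100 kb in 1 cell line and at most 1 in the other. The genes were chosen by the number of peaks within 100 kb of their bodies in each line, so their counts and the difference between the lines are a description and carry no test. Together their windows held 20 of the 2445 peaks (0.818%) of 3T3-L1 and 20 of the 1557 peaks (1.28%) of C3H10T1/2. Cwc22 had 13 peaks in 3T3-L1 and 0 in C3H10T1/2, Adh6b had 6 and 0, and Sfi1 had 1 and 20.

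The peaks come from chromatin immunoprecipitation with a GATA2 antibody and sequencing in each line, with no genotype or treatment named in the labels. 3T3-L1 is a mouse fibroblast line that readily becomes fat, and C3H10T1/2 is a mouse embryo line with a wider choice of mesenchymal fates. The labels name 2 GATA2 ChIP libraries and 2 input libraries for each line, with ChIP DNA pooled from individual immunoprecipitations. The values analysed are the positions of peaks in 1 deposited list per line, with no score and no read depth, and a single list per line gives no spread between cultures to judge a difference by. The lists hold no expression values, and the lines could not be checked against marker genes. All coordinates are mm10, counted from 1.

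GATA2 is a zinc finger transcription factor that binds short DNA sites built around the letters GATA, often far from the genes it controls. In fat precursors it is known to hold back maturation into fat cells. The members have no common pathway. Cwc22 encodes a spliceosome protein that brings the helicase eIF4A3 to spliced mRNA, where it forms the core of the exon junction complex. Sfi1 encodes a long repeat protein of the centrosome that binds centrins, a role first worked out in yeast. Adh6b belongs to the alcohol dehydrogenases, zinc enzymes that oxidise ethanol, retinol and other alcohols, and lies in a row of such genes.

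Cwc22 is the member for which RefSeq gave a start-site sequence (build GRCm38.p6), and it is shown because it places the 13 peaks relative to the start of transcription. It runs from 250 bases before to 50 bases after the start, on the minus strand at chr2:77946307-77946606, printed 5′ to 3′ with GATA on either strand in capitals.

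Cwc22 start: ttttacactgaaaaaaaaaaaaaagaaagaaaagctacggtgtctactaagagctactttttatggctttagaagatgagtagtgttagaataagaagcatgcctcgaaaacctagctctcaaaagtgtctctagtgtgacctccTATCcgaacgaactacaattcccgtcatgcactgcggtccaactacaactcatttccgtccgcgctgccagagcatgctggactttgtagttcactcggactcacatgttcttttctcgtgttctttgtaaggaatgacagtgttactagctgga

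The window held GATA once, on the opposite strand, at bases 146 to 149. Longer forms, with A or T before and A or G after GATA, were searched on both strands and had 0 matches. Among 32817 RefSeq start-site windows of this length, 57.9% held GATA and 29.8% held a longer form, each of which contains GATA. The nearest peak to the window was a 3T3-L1 peak 10.6 kb away, inside Cwc22.

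Cwc22 (chromosome 2, 77881159 to 77946356) had its 13 peaks of 3T3-L1 in 3 groups separated by empty stretches. The body held 6 of them. Another 4 lay below the lower boundary, which is the far end of this minus-strand gene, and 3 lay above the higher boundary, upstream of its start. C3H10T1/2 had no peak in any of the 3 groups, and its nearest peak lay 1539 kb from the last Cwc22 peak, at 79566373 to 79566584.

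The groups at Cwc22 can be followed peak by peak. Below the gene, 4 peaks started at 77871054, 77873317, 77878126 and 77879601 and were 85, 82, 117 and 101 bp wide. Their centres stood between 1.51 and 10.1 kb from the lower boundary, so this group abutted the gene's far end. A gap of 29240 bp followed, which took in the first 27.8 kb of the body.

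Inside the body, 6 peaks started at 77908942, 77910019, 77911559, 77915962, 77922090 and 77935592. The peak at 77911559 to 77911800 was the widest of the 13, at 242 bp, which is wider than 86.2% of the peaks of 3T3-L1. The other 5 measured 113, 164, 90, 98 and 123 bp. The upper 10.6 kb of the body, where transcription starts, held no peak.

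Above the gene a gap of 71165 bp was the longest in the window, and it spanned the pseudogene Gm13726 (77962220 to 77963083), which had no peak in its body. The last group followed, with peaks at 78006880 to 78006986, 78010558 to 78010695 and 78026811 to 78026980. These were 107, 138 and 170 bp wide and lay 60.6, 64.3 and 80.5 kb from the gene, outside any annotated gene. Zfp385b, a zinc finger gene (77410622 to 77817706), is the other protein-coding gene within 100 kb of Cwc22. It had 8 of the Cwc22 peaks of 3T3-L1 and 0 peaks of C3H10T1/2 within 100 kb and none in its body, the nearest peak centre being 53.4 kb away. No further 3T3-L1 peak lay within 500 kb, the next ones being 2079 kb below and 1625 kb above the gene.

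**Figure D1:**
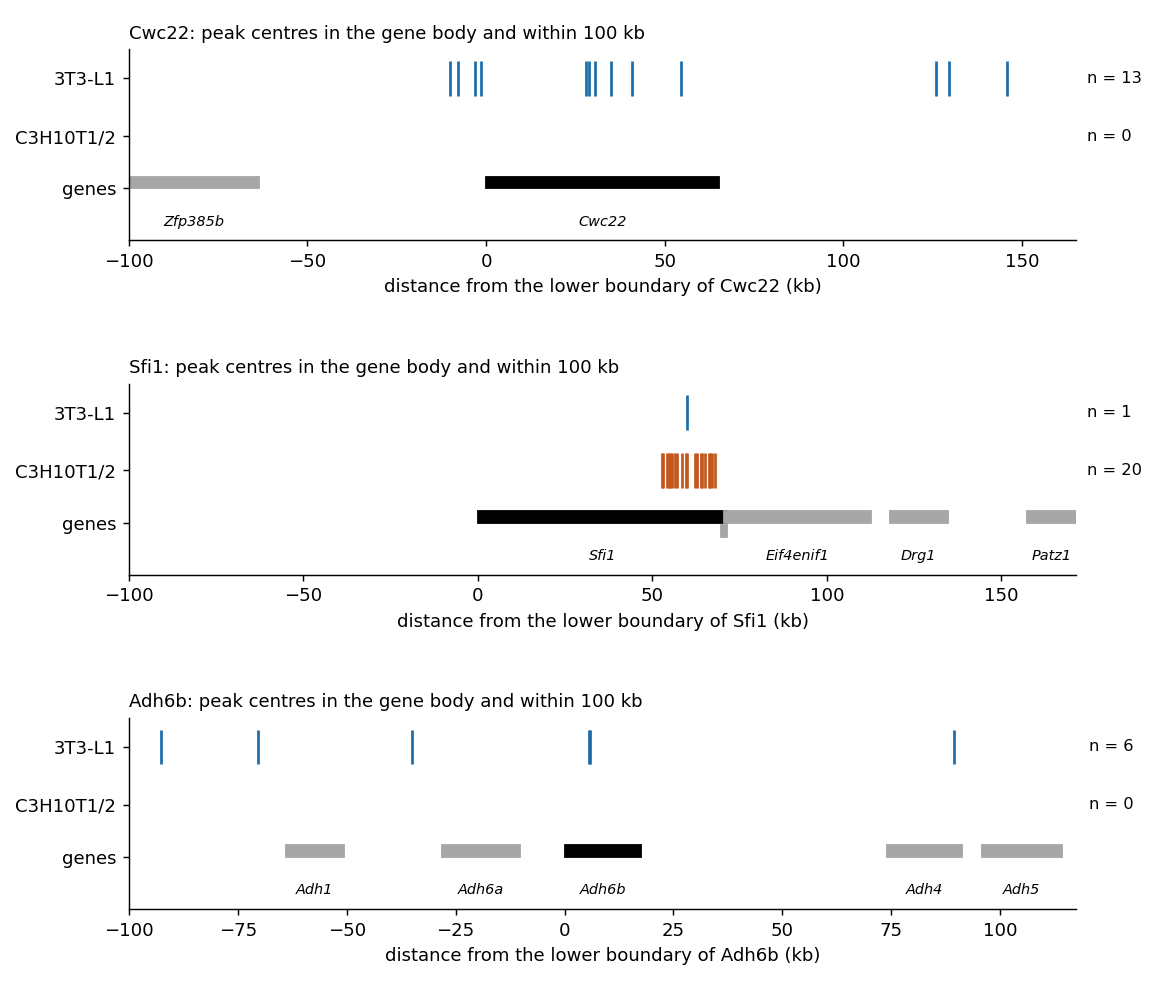
Peak centres around Cwc22, Sfi1 and Adh6b, with 3T3-L1 peaks as blue lines above C3H10T1/2 peaks as orange lines. The x axis is the distance from the lower boundary of the named gene in kb. Bars show protein-coding genes, the named gene in black. The small bar under the end of Sfi1 is Gm51877. The 13 peaks at Cwc22 form 3 groups, the 20 C3H10T1/2 peaks at Sfi1 sit at a single place, and the 6 at Adh6b are spread over the window.

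A cluster was defined as at least 3 peaks of a list with gaps of at most 20 kb, which made 24 clusters in 3T3-L1 and 34 in C3H10T1/2. All 3 groups at Cwc22 counted as clusters. The body cluster ran from 77908942 to 77935714, 26.8 kb with 6 peaks, and tied for the fifth place by number among the 24. The cluster below the gene ran over 8.65 kb from 77871054 to 77879701 with 4 peaks, and the cluster above it over 20.1 kb from 78006880 to 78026980 with 3. These 3 clusters had 2.24, 4.63 and 1.49 peaks per 10 kb, beside a median of 2.41 over the clusters of 3T3-L1. In all, 13 of the 24 clusters of 3T3-L1 held no C3H10T1/2 peak, and the 3 at Cwc22 were among them.

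Sfi1 (chromosome 11, 3131850 to 3203347) had all of its 20 C3H10T1/2 peaks in a stretch of 15.5 kb, from 3184453 to 3199962, which is 21.7% of the gene's body. Below it, 52.6 kb of the body held no peak of either list, and above it 3.39 kb of the body were empty. 3T3-L1 had 1 peak in the same stretch. The cluster was the largest of the 34 clusters of C3H10T1/2 by number, ahead of 5 peaks in the next, and the third by density, at 12.9 peaks per 10 kb beside a median of 4.20. Sfi1 and Cwc22 were chosen by their peak counts, so nothing is read from the places of their clusters. Peaks covered 23.6% of its length.

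The Sfi1 peaks stood close together. Of the 19 gaps between neighbours 15 were under 1000 bp, with a median of 486 bp and a range of 87 to 2182 bp, beside a median gap of 498675 bp over the whole C3H10T1/2 list. Since Sfi1 was chosen for its many peaks, gaps far below the list median follow from the choice. The longest gap divided the cluster into 11 peaks over 7.46 kb, from 3184453 to 3191914, and 9 peaks over 5.87 kb, from 3194097 to 3199962. Widths had a median of 185 bp in the lower part and 142 bp in the upper part.

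The widest Sfi1 peak formed the upper edge of the cluster, at 3199522 to 3199962, and its 441 bp exceeded 98.0% of the list. The next widest were 366 bp at 3187271 to 3187636 and 304 bp at 3185893 to 3186196. In contrast the lower edge, at 3184453 to 3184547, measured 95 bp, the smallest width in the list. The peak at 3194097 to 3194191, which opens the upper part, was equally narrow.

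The 1 peak of 3T3-L1 at Sfi1 ran from 3191753 to 3191834 and was 82 bp wide. It lay wholly inside the C3H10T1/2 peak at 3191707 to 3191914, the last before the longest gap. No other peak of the 3 genes overlapped a peak of the other line. Thus 1 of 20 member peaks (5%) overlapped the other list from either side, where the whole lists had 22.4% of 3T3-L1 peaks and 34.7% of C3H10T1/2 peaks. Since the genes were chosen for a difference between the lists, a low overlap follows from the choice.

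**Figure D2:**
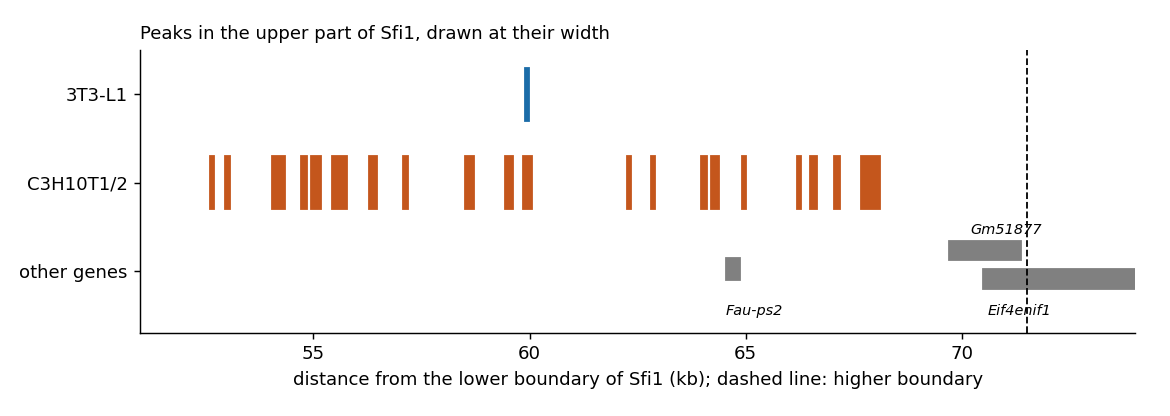
The upper part of Sfi1, with each peak drawn at its width against the distance in kb from the gene's lower boundary; the 3T3-L1 peak is in blue on the upper row and the C3H10T1/2 peaks in orange below it. Grey bars are the pseudogene Fau-ps2, Gm51877 and the beginning of Eif4enif1. The single 3T3-L1 peak falls within the last of the 11 C3H10T1/2 peaks before the 2182 bp gap.

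Other genes are annotated around the Sfi1 cluster. Fau-ps2, a pseudogene named for Fau, the gene of a ubiquitin-like protein fused to a ribosomal protein, lies at 3196390 to 3196727. It fills most of the 520 bp gap between the peaks that end at 3196235 and begin at 3196756, and neither peak touched it. The lower boundaries of Gm51877 (3201544 to 3203218) and Eif4enif1 (3202343 to 3244588) lie 1581 and 2380 bp above the end of the last C3H10T1/2 peak. Gm51877 is on the minus strand, so its lower boundary is its far end. Its start-site window was 3.21 kb from the nearest C3H10T1/2 peak. Eif4enif1 encodes a carrier of the cap-binding protein eIF4E, and neither gene had a peak of either list in its body. Drg1, a GTP-binding protein gene, had the same 1 and 20 peaks within 100 kb, and Patz1, which encodes a zinc finger factor, had 1 and 12. Those are the Sfi1 peaks counted again and no further sites. The lower boundary of Sfi1, at 3131850, is near the start of chromosome 11, so little of the chromosome lies below its window. Neither list had a peak there, and nothing is read from that. The next C3H10T1/2 peak above the window was 421 kb from the gene, at 3624435 to 3624759.

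Adh6b (chromosome 3, 138341412 to 138358859) had 6 peaks of 3T3-L1 scattered over the alcohol dehydrogenase row, and only a pair of them lay in the gene. That pair ran from 138346926 to 138347109 and from 138347231 to 138347348, 184 and 118 bp wide and 121 bp apart. It stood 5.61 and 5.88 kb above the gene's lower boundary. The other gaps of the window were 22056 to 83363 bp, so no 3 peaks at Adh6b met the definition of a cluster. With gaps of up to 50 kb, 5 of the 6 joined into a run of 98.5 kb from 138248866 to 138347348.

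Of the remaining 4 peaks near Adh6b, 3 fell inside neighbouring genes. The peak at 138430712 to 138430839 lay inside Adh4, whose enzyme oxidises retinol and long-chain alcohols. A peak at 138306307 to 138306468 was in the body of the long noncoding RNA gene Gm16559, and one at 138271003 to 138271107 in that of Gm40156. The peak at 138248866 to 138248946 lay outside any annotated gene and was the narrowest of the 6, at 81 bp. It was also the farthest inside the 100 kb limit, at 92.5 kb, and the nearest peak beyond the limit was at 138515956 to 138516231, 157 kb above Adh6b.

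Windows of neighbouring genes in the row overlap, so peaks are counted at several of them. Within 100 kb, Adh6a had 6 peaks of 3T3-L1, Adh1 had 5, Adh4 and Adh5 had 4 each and Adh7 had 3, and each had 0 of C3H10T1/2. The 4 peaks at Adh4 and Adh5 include the peak at 138515956 to 138516231, which is outside the window of Adh6b. Adh1 and Adh7 encode enzymes with activity on ethanol and retinol, and Adh5 encodes the enzyme that clears formaldehyde bound to glutathione. None of Adh1, Adh6a, Adh5 and Adh7 had a peak in its body. The nearest C3H10T1/2 peak to Adh6b was at 138745577 to 138745775, 387 kb above it.

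**Figure D3:**
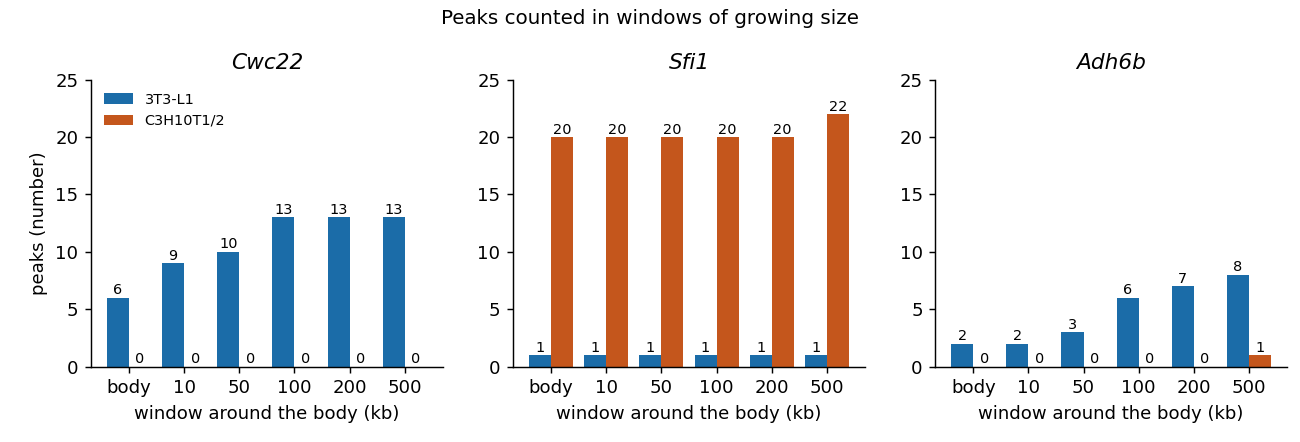
Number of peaks in the gene body and in windows of 10 to 500 kb around it, with 3T3-L1 in blue left of C3H10T1/2 in orange. The counts at Sfi1 are the same from the body to 200 kb, while those of 3T3-L1 go from 6 to 13 at Cwc22 and from 2 to 8 at Adh6b as the window grows.

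In the body alone, Cwc22 held 9.20 peaks of 3T3-L1 per 100 kb (6 peaks), Adh6b 11.5 (2 peaks) and Sfi1 1.40 (1 peak). The rate of Adh6b rests on a pair of peaks in a body of 17.4 kb. In C3H10T1/2 the body of Sfi1 held 28.0 per 100 kb (20 peaks) and the bodies of Cwc22 and Adh6b held 0.

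Median widths at the 3 genes were below those of their lists. The C3H10T1/2 peaks at Sfi1 and the 3T3-L1 peaks at Adh6b were not far from an even split around the list median. At Cwc22 the median width was 113 bp (range 82 to 242), beside 144 bp over 3T3-L1, and 10 of 13 were under that median. At Adh6b it was 123 bp (81 to 184) with 4 of 6 under it. At Sfi1 the C3H10T1/2 peaks had a median of 162 bp (95 to 441), beside 184 bp over the list, with 12 of 20 under it. Peaks of a single locus share their source and are not replicates, so the widths were not tested. The C3H10T1/2 list has no peak under 95 bp. Narrower than that were 3 of the 13 peaks at Cwc22, 1 of the 6 at Adh6b and the 3T3-L1 peak at Sfi1, and 413 of the 2445 peaks (16.9%) in all of 3T3-L1. The part of the width limit in the counts was not tested.

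**Figure D4:**
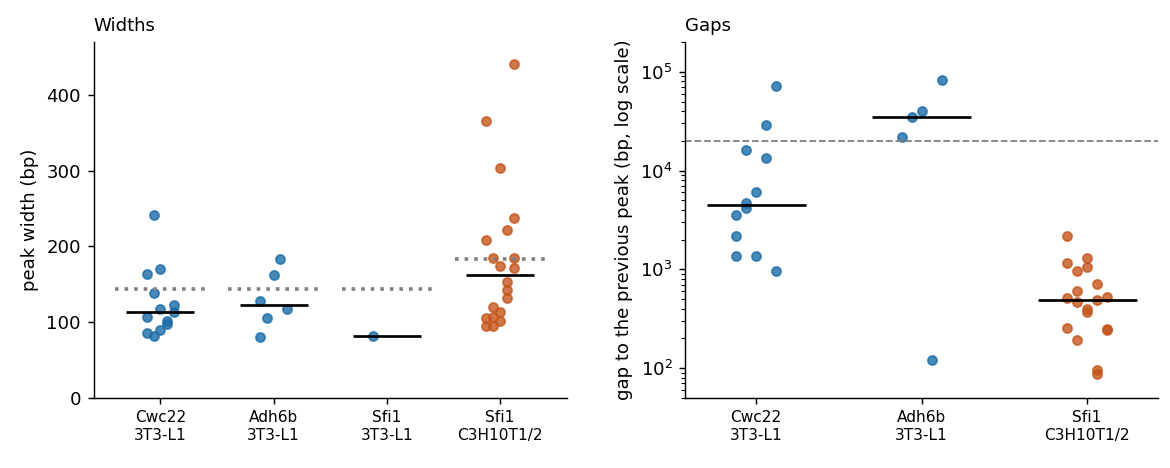
Widths in bp (left) and gaps to the previous peak in bp on a log scale (right) of the peaks within 100 kb of Cwc22, Adh6b and Sfi1, with 3T3-L1 in blue and C3H10T1/2 in orange. Black lines are medians, dotted lines are the medians of the whole lists, and the dashed line is the 20 kb limit of a cluster. All 19 gaps at Sfi1 are under 3 kb, whereas 4 of the 5 gaps at Adh6b exceed 20 kb.

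None of the 40 member peaks overlapped a RefSeq start-site window, of which 17 lie within 100 kb of the 3 genes. The 17 include no window of Sfi1 or Adh6b themselves, so the starts of these genes were not covered. Over the whole lists 1.60% of 3T3-L1 peaks and 2.89% of C3H10T1/2 peaks did. The closest approach at Sfi1 was 2.14 kb, between the last C3H10T1/2 peak and a start of Eif4enif1. At Adh6b it was 0.514 kb, at the start of Gm16559.

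Few genes had counts as lopsided. At least 5 peaks of 3T3-L1 and at most 1 of C3H10T1/2 within 100 kb were found at 22 of the 21631 genes (0.102%), which include Cwc22 and Adh6b and fall into 9 loci. The reverse was found at 6 genes (0.0277%) in 2 loci, namely the 5 genes around Sfi1 and Gmds on chromosome 13, which had 0 and 5 peaks. The members were picked for this contrast, so nothing is read from the shares. By number of 3T3-L1 peaks Cwc22 ranked 11 and Adh6b 25 among all genes, and Sfi1 ranked 1 by number of C3H10T1/2 peaks. Adh6b shared its rank with Adh6a among others, and Sfi1 shared its rank with Gm51877, Eif4enif1 and Drg1, whose windows hold the same peaks.

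Likeness to a member was measured as the sum of the absolute differences in the counts within 100 kb over the 2 lists, for genes more than 1 Mb away. Closest to Cwc22 were Lyz2, which encodes a lysozyme, with 14 and 0 peaks, then Acss3, an acyl-CoA synthetase gene, with 15 and 0, both on chromosome 10. Unlike that of Cwc22, both windows cut into the edge of a much larger 3T3-L1 cluster. That of Acss3 reaches into one of 60 peaks (107213417 to 107256721). The window of Lyz2 reaches into one of 376 peaks (117377462 to 117790202). It also holds a separate 3T3-L1 cluster of 8 peaks (117281251 to 117287454), which overlaps Lyz2 itself. The next, 9530003J23Rik with 8 and 1, differed from Cwc22 by 6 peaks, as did 1 further gene. Closest to Adh6b was Scfd2 with 5 and 0, which differed by 1 peak. Another 10 genes tied at a difference of 2, among them the calcium channel subunit gene Cacna2d3 with 4 and 0 and the collagen gene Col14a1 with 5 and 1. No gene came near Sfi1, which was chosen for its many peaks. The best matches differed from it by 16 peaks, and 12 genes tied at that value, among them Ccdc34 with 3 and 6, Celf2 with 1 and 4 and Cubn with 2 and 5.

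Genes that work with Cwc22 were near peaks about as often in both lines. Of 25 exon junction complex and spliceosome genes, 5 (20%) had a 3T3-L1 peak within 100 kb and 5 (20%) a C3H10T1/2 peak, beside 13.9% and 12.1% of all protein-coding genes, with a median of 0 peaks for the list and for all genes in each line. Rbm8a, which encodes the core subunit Y14, had 3 and 1 peaks, Cwc27, a spliceosomal isomerase gene, had 2 and 3, and Prpf8, the central spliceosome scaffold, had 1 and 2. Magohb, another core subunit gene, had 1 and 0 with the 3T3-L1 peak in its body (131289850 to 131289983, chromosome 6). Rnps1 also had 1 and 0, while Upf1, the helicase of nonsense-mediated decay, and Crnkl1 had 0 and 1. None approached the 13 peaks of Cwc22, which follows from the choice of Cwc22 by its count.

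Of 20 centrosome and centriole genes chosen as partners of Sfi1, 1 (5%) had a peak within 100 kb in each line, beside 13.9% and 12.1% of all protein-coding genes. It was Cntrob, the gene of the centriole protein centrobin, with 1 peak in 3T3-L1 (69366534 to 69366825, chromosome 11) and 1 in C3H10T1/2 (69366526 to 69366833) at the same place, 42.8 kb from the gene. The other 19 genes, which include centrin genes, had 0 peaks within 100 kb in each list.

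Of 21 alcohol, aldehyde and retinol dehydrogenase and related enzyme genes other than Adh6b, 11 (52.4%) had a 3T3-L1 peak and 4 (19.0%) a C3H10T1/2 peak. Their medians were 1 and 0 peaks. Of all protein-coding genes 13.9% and 12.1% did, with a median of 0 in each line. Among the 11 were 5 genes of the Adh6b row, whose windows share peaks with that of Adh6b. Of the other 16 genes, 6 (37.5%) had a 3T3-L1 peak and 4 (25%) a C3H10T1/2 peak, with at most 1 in each line. Aldh3a1 and Aldh3a2, which encode aldehyde dehydrogenases, shared a single 3T3-L1 peak. Dhrs3, which encodes a reductase of retinal, had 1 and 1 at overlapping positions (chromosome 4, 144949644 to 144949756 in the 3T3-L1 list, against 144949586 to 144949788 in the other). Retsat and Rdh12 had 1 and 0, Rdh14 had 1 and 1, and Rdh10 and Dhrs9 had 0 and 1.

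Cwc22 is known, as background, to lie in a duplicated segment whose copy number varies among mouse strains. Whether Sfi1 and Adh6b also lie in such segments was not examined. The copy number of the 3 loci in these lines was not measured here, and the input libraries were not analysed here.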

How the data were processed

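GATA2 binding was mapped by ChIP-seq in 3T3-L1 and C3H10T1/2 cells. The values used are the start and end of each peak in bp, in 1 list per line deposited by the authors, with no score, coverage or p-value. The submitters' processing notes name build mm10 and MACS2, Bowtie2, bedtools, SAMtools and CASAVA 1.8, without saying which did what. How libraries were combined, how input was used and which threshold or later removal shaped the lists is not stated in the labels or files, and any of these can change the number and width of peaks. Read depth is unknown.

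Genes, boundaries and start-site sequences were taken from RefSeq GRCm38.p6. Start-site sequences were matched by symbol for 1 of the 3 genes, and exons and introns were not used here. A peak belonged to a gene when its centre lay in the body or within 100 kb. Gaps are bases between neighbouring peaks, and overlap means at least 1 bp. The genes named are the 3 members, their neighbours within 100 kb, the 3 genes nearest to each in their pair of counts, with ties broken by distance to a peak and then by name, and genes of 3 functional lists that had a peak. The members and lists were chosen with earlier results of these data known. No test was run. A planned motif search in peaks needed a genome sequence and was not run. Scripts used Python 3.11.15, pandas 2.3.3 and numpy 2.4.6 and were checked on made-up peaks.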

Additional observations from a re-analysis of the deposited data

How the results depend on the processing

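No paired analysis was possible because each line has 1 list, and for the same reason no replicate could be left out. The 0 counts of C3H10T1/2 at Cwc22 and Adh6b held in a window of 200 kb and with any base of a peak in the window. They could only be 0 in the body alone, within 10 and 50 kb, and with peaks of at least their list's median width. The counts at Sfi1 held in all of these settings but the last. In the body alone Cwc22 had 6 and Adh6b 2 peaks of 3T3-L1, and Adh6b had 2 within 10 kb and 3 within 50 kb. With peaks of at least the median width, 3 remained at Cwc22 and 2 at Adh6b in 3T3-L1, and Sfi1 had 0 in 3T3-L1 and 8 in C3H10T1/2, all 8 in a single cluster. No cluster was left at Cwc22 (0 peaks, 0 kb). With gaps of at most 50 kb the largest cluster had 10 peaks over 64.7 kb at Cwc22 and 5 over 98.5 kb at Adh6b, against 0 peaks and 0 kb at Adh6b with 20 kb. At Cwc22 it spanned 7.11 kb with gaps of 5 kb and 13.2 kb with gaps of 10 kb. The edges of the Sfi1 cluster were the same with gaps of 5 to 50 kb. The shared site at Sfi1 was lost under an overlap of 50% of both peaks (0 from either list), and with centres within 1 kb 2 C3H10T1/2 peaks matched it. Genes with many 3T3-L1 peaks and at most 1 of C3H10T1/2 numbered 36 with at least 4 peaks, 14 with at least 8 and 12 in a window of 50 kb. In the other direction there were 16 with at least 4 peaks.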
